A study of Mus musculus with 15 samples.

Results

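The auditory nerve of 21-day-old mice (P21), an age at which mice hear, was compared with that of 7-day-old mice (P7), when the nerve is being myelinated and the ear canal is still closed. The comparison used 6 of the 15 deposited RNA sequencing libraries, P21 replicates 1, 2 and 3 and P7 replicates 4, 5 and 6, which were picked by their labels and not by any measured value. The whole series holds 3 libraries each from P3, P7, P14, P21 and adult mice. Each library was made from the nerve dissected out of both cochleae of 1 mouse, and samples with degraded RNA or other tissue in them had been left out by the submitters before sequencing. The labels give no strain, sex, litter, genotype change or treatment for either age. Expression is given as the authors' normalised read count, a gene's reads divided by a size factor of the library. Values of single libraries are listed in the order of their replicate numbers.

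The auditory nerve carries the axons of the spiral ganglion neurons from the cochlea to the brain stem. Type I neurons contact the inner hair cells and fire at high rates, whereas the less numerous type II neurons contact outer hair cells. In the cochlear part of the nerve the axons are wrapped by Schwann cells, and near the brain stem the wrapping passes to oligodendrocytes. Hearing in mice begins late in the second postnatal week, after a period in which the tectorial membrane, the bony core of the cochlea and the ion-transporting fibrocytes of its lateral wall also mature. A dissected nerve therefore contains neurons, glia, vessels and blood, and may contain pieces of bone and neighbouring cochlear tissue.

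Markers of the labelled tissue were present in all 6 libraries. The neuronal gene Snap25 counted 77392, 93414 and 81404 in the P21 libraries, against 11716, 10672 and 12191 in the P7 libraries. The myelin gene Mbp counted 168368, 328473 and 167207 in the P21 libraries, against 240893, 262925 and 232926 in the P7 libraries. Reads of other cochlear tissues were present too, with summed counts of 14 fibrocyte markers at 1134949.8 to 1610541 in the P21 libraries, against 237426 to 251701 in the P7 libraries, and of 15 bone markers at 246638 to 308751 in the P21 libraries, against 477848 to 603877 in the P7 libraries. Recovered library totals lay between 38878727 and 42258738 reads, and a count of 0 in a library allows up to 2.71 to 3.08 normalised reads, a limit that covers counting error only. P21 replicate 2 stood apart from the other P21 libraries on the second principal component of the 6 libraries, at 54.9 against -30.0 and -28.1. In it, 46 of 10802 well-counted genes lay at least 4-fold below both other P21 libraries, and these genes had a median longest transcript of 8345 bases, against 3639.5 bases for all of them. Genes were divided into 4 equal classes of transcript length. The class of the longest deviated in P21 replicate 2 by a median of -0.35 log2 units from the mean of the other P21 libraries. The class of the shortest deviated by 0.30. The male-specific gene Eif2s3y was listed at 0, 0 and 2454 in the P21 libraries, against 3317, 3366 and 3343 in the P7 libraries, and Xist, transcribed from the inactive X chromosome of females, at 39326, 24201 and 303 in the P21 libraries, against 14.5, 9.68 and 9.39 in the P7 libraries. P21 replicates 1 and 2 thus differ from the P7 libraries in this pattern as well as in age. P14 replicate 1 (Eif2s3y 0, Xist 33477) and adult replicate 3 (26.7 and 44422) shared it. Results given as without P21 replicates 1 and 2 come from a fit that left out these libraries too. That fit kept 1 P21 library and rests on fewer libraries than the main fit. Most calls of named genes that changed in it are given with the changed value. So are list counts of 3 or more genes and medians that moved by more than 1.5 times.

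Between the ages 9441 of 16723 tested genes, or 56.5%, changed at an adjusted p of 0.05 (limma on log2 values with Benjamini-Hochberg adjustment). There were 4675 genes higher at P21, 28% of those tested, and 4766 genes lower, 28.5%. At least a 2-fold change was reached by 3400 of them, 20.3%, with 1736 higher, 10.4%, and 1664 lower, 9.95%. On whole reads recovered from the values, edgeR called 9442 genes, 56.5%, and DESeq2 9852, 58.9%. Groups of P21 and P7 libraries did not overlap in 10193 genes, 61.0%. The median log2 fold change of all tested genes was -0.01. The counts within the gene groups are read against these shares. In a whole dissected nerve, fewer cells of a type and less RNA per cell cannot be told apart. The limma p-values rest on the spread between mice of the same age, pooled over all ages of the series. Each age has 3 mice, and the spread is not that of the P21 and P7 mice alone.

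The gene that rose most was Ceacam16 (mm10 chromosome 7, 19852097 to 19861299), which encodes a protein of the tectorial membrane, the sheet over the hair cells. It counted 44806, 56191 and 56049 in the P21 libraries, against 94.0, 111 and 57.3 in the P7 libraries. Its log2 fold change was 9.25 ± 0.29 (SE), with an adjusted p of 2.23e-10. Next to it in size, apart from Xist, were the inositol transporter gene Slc5a11 (6.34), the protease gene Klk6 (5.89) and the fibrocyte transporter gene Slc4a11 (5.71). The astrocyte enzyme gene Etnppl (5.12), the cytochrome oxidase subunit gene Cox8b (5.04), the phospholipase-like gene Plbd1 (4.64), the lubricin gene Prg4 (4.40), the methyltransferase gene Inmt (4.34), the glutathione peroxidase gene Gpx2 (4.25) and Vwa7 (4.13) completed the 12 that rose most. Klk6 stood at a log2 fold change of 5.11 without P21 replicate 2, and at 6.51 without P21 replicate 3, and Etnppl at 5.72 without P7 replicate 6.

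Of the genes that fell, Oc90 fell most (mm10 chromosome 15, 65876053 to 65912287). It encodes otoconin-90, a secreted matrix protein of the otoconia. Its counts were 37.4, 30.8 and 47.9 in the P21 libraries, against 18016, 19009 and 11021 in the P7 libraries. Its log2 fold change was -8.64 ± 0.25 with an adjusted p of 1.97e-10. The tectorial membrane genes Tectb (-6.87) and Tecta (-6.20) and the protease gene Tmprss9 (-6.47) fell with it. Among the 12 were 4 genes of osteoclasts or of matrix breakdown, Acp5 (-6.73), Atp6v0d2 (-6.01), Mmp13 (-5.71) and Mmp9 (-5.66). The others were the nicotinic receptor subunit gene Chrnb4 (-6.59), the neuronal protease gene Ecel1 (-6.13), the imprinted noncoding RNA H19 (-5.71) and Eif2s3y, given above. Without 1 P21 library the values were -5.93 for Chrnb4 (replicate 2), -6.95 for Tecta (replicate 1) and -6.63 for Mmp13 (replicate 1).

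**Figure D1:**
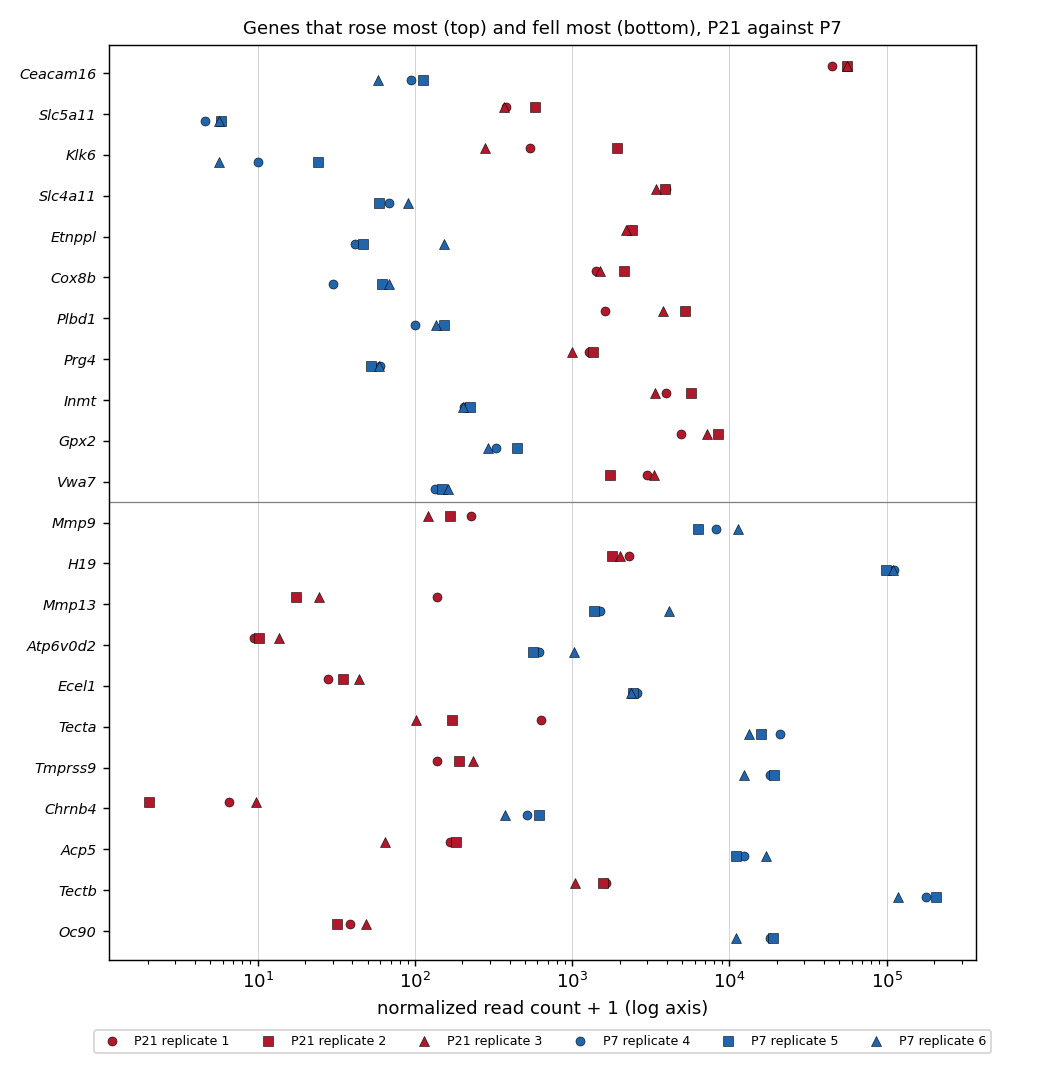
Normalised read counts (log axis) of the genes that rose or fell most, 1 point per library, P21 in one colour and P7 in the other; Xist and Eif2s3y are left out. Ceacam16 is at 44806 or more in the 3 P21 libraries and at 111 or less in the P7 libraries, and Oc90 at 47.9 or less in the P21 libraries and at 11021 or more in the P7 libraries.

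Genes of the spiral ganglion neurons were higher at P21. Of 25 markers tested, 21 rose, 1 fell and 3 were not called, with a median log2 fold change of 1.27. Snap25 (mm10 chromosome 2, 136713450 to 136782428), whose product joins the complex that fuses synaptic vesicles, was 7.28-fold higher (log2 fold change 2.86 ± 0.14, adjusted p = 4.68e-09). Slc17a7 (mm10 chromosome 7, 45163921 to 45176139), which fills vesicles with glutamate, counted 16746, 16413 and 17996 in the P21 libraries, against 3868, 3543 and 3462 in the P7 libraries. It was 4.71-fold higher, and the libraries of the 2 ages did not overlap. Calb2, the calcium buffer calretinin, counted 124855, 140300.0 and 134324 in the P21 libraries, against 20675, 18091 and 20752 in the P7 libraries. The neuronal enolase gene Eno2 (3.77-fold), the surface protein gene Thy1 (4.93-fold) and the transcription factor gene Pou4f1 (4.36-fold) rose too. Gata3, a transcription factor gene of early spiral ganglion neurons, was the marker that fell, by 2.16-fold. Not called were Stmn2, a growth-associated tubulin regulator (9199, 12414 and 11412 in the P21 libraries, against 9404, 8095 and 10193 in the P7 libraries), the neurotrophin-3 receptor gene Ntrk3 (log2 fold change 0.28 ± 0.12, adjusted p = 0.0566) and the transcription factor gene Neurod1 (log2 fold change 0.40 ± 0.84). Ntrk3 lay near the threshold, and was called higher by edgeR (adjusted p = 0.0495), by DESeq2 (0.0395), without P21 replicate 2 (0.00867), without P7 replicate 6 (0.0463), without P21 replicates 1 and 2 (0.0178) and with low Eif2s3y as a covariate (0.0243).

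Markers that divide type I neurons into subtypes moved the same way in 13 of 14 genes, with 0 fallen and a median log2 fold change of 1.65. Lypd1, of the Ly6 family of nicotinic receptor modulators, counted 13543, 12996 and 14439 in the P21 libraries, against 1649, 1458 and 1639.7 in the P7 libraries. Its log2 fold change was 3.11 ± 0.13 (adjusted p = 1.79e-09). The orexin receptor gene Hcrtr2 was 8.13-fold higher, Grm8 4.16-fold and Runx1 2.11-fold. Genes that mark different subtypes, Calb2, Lypd1 and Runx1 among them, rose together. Calb1, the calbindin gene, was not called, with 504, 3186 and 652 in the P21 libraries, against 1878, 2259 and 1919 in the P7 libraries. P21 replicate 2 was above, and the other P21 libraries below, the P7 range for Calb1. Without P21 replicate 2 it was called lower (adjusted p = 0.0179), and the list then had 1 gene fallen.

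Beside these results, summed counts of 25 fibroblast and interstitial matrix genes were 326545 to 376329.8 in the P21 libraries, against 759444 to 933625 in the P7 libraries, those of 20 cartilage genes 175974 to 191707 in the P21 libraries, against 662862 to 736206 in the P7 libraries, and those of 15 bone genes as given above. The fibroblast and bone lists both hold Col1a1 and Col1a2, so those sums share reads. Normalised counts are relative to the rest of the library, and the part that these tissues have in the neuronal results was not tested.

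Synaptic vesicle and release genes showed the highest median of the neuronal lists, 1.81, with 22 of 27 genes risen, 3 fallen and 2 not called. Vamp1, a vesicle fusion protein, counted 55098, 54019.7 and 59541 in the P21 libraries, against 12201, 10103 and 12011 in the P7 libraries. It was 4.93-fold higher (log2 fold change 2.30 ± 0.11, adjusted p = 3.16e-09). The vesicle protein genes Syp (4.16-fold) and Sv2a (3.32-fold), the synapsin gene Syn1 (5.32-fold), the dynamin gene Dnm1 (4.78-fold) and the release regulator gene Rab3a (4.22-fold) rose. So did the active zone scaffold genes Bsn (3.88-fold) and Pclo (3.51-fold). Vamp2 was not called, with a log2 fold change of 0.10 ± 0.15.

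Syt1, Cplx2 and Stx1a were the 3 genes that fell. Syt2, the fast calcium sensor of release, counted 10229, 5945 and 10798 in the P21 libraries, against 1177, 1176 and 1161 in the P7 libraries. Its relative Syt1 counted 237, 251 and 262 in the P21 libraries, against 1924, 2507 and 1884 in the P7 libraries. Syt1 had a log2 fold change of -3.06 ± 0.86 (adjusted p = 0.00857), a call that was lost without P21 replicates 1 and 2 (adjusted p = 0.114). Cplx1, a complexin that clamps and speeds fusion, was 3.9-fold higher, and Cplx2 was 3.42-fold lower. Stx1a was 2.18-fold lower. Over 18 pairs of a later and an earlier isoform, drawn from developmental neurobiology and listed with results of these data known, the log2 ratio of the later to the earlier gene was higher in all 3 P21 libraries than in all 3 P7 libraries in 15 pairs. Of single tested genes, 61.0% did not overlap between the ages in either direction, and the share among gene pairs in general was not computed. For Syt2 over Syt1 it averaged 5.12 ± 0.48 in the P21 libraries and -0.83 ± 0.22 in the P7 libraries (SD, n = 3 each). For Cplx1 over Cplx2 it averaged 6.25 ± 0.23 in the P21 libraries and 2.51 ± 0.24 in the P7 libraries. In 5 pairs the later gene rose and the earlier gene fell, Tuba4a over Tuba1a and Ldhb over Ldha among them. With 3 libraries a group, the exact permutation test of a pair's ratio cannot go below a two-sided p of 0.1, the value reached where the groups did not overlap. Nefh over Nefm (0.73 ± 0.14 at P21 and 0.62 ± 0.27 at P7, exact p = 0.7) and the chloride exporter gene Slc12a5 over the importer gene Slc12a2 (exact p = 0.2) overlapped. Grin2a over Grin2b was lower at P21 without overlap, on counts at or near the limit of detection, and the call of Grin2a itself was lost without P21 replicates 1 and 2 (adjusted p = 0.441). Ratios are not corrected for gene length, so they compare the ages and not the levels of a pair's genes.

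**Figure D2:**
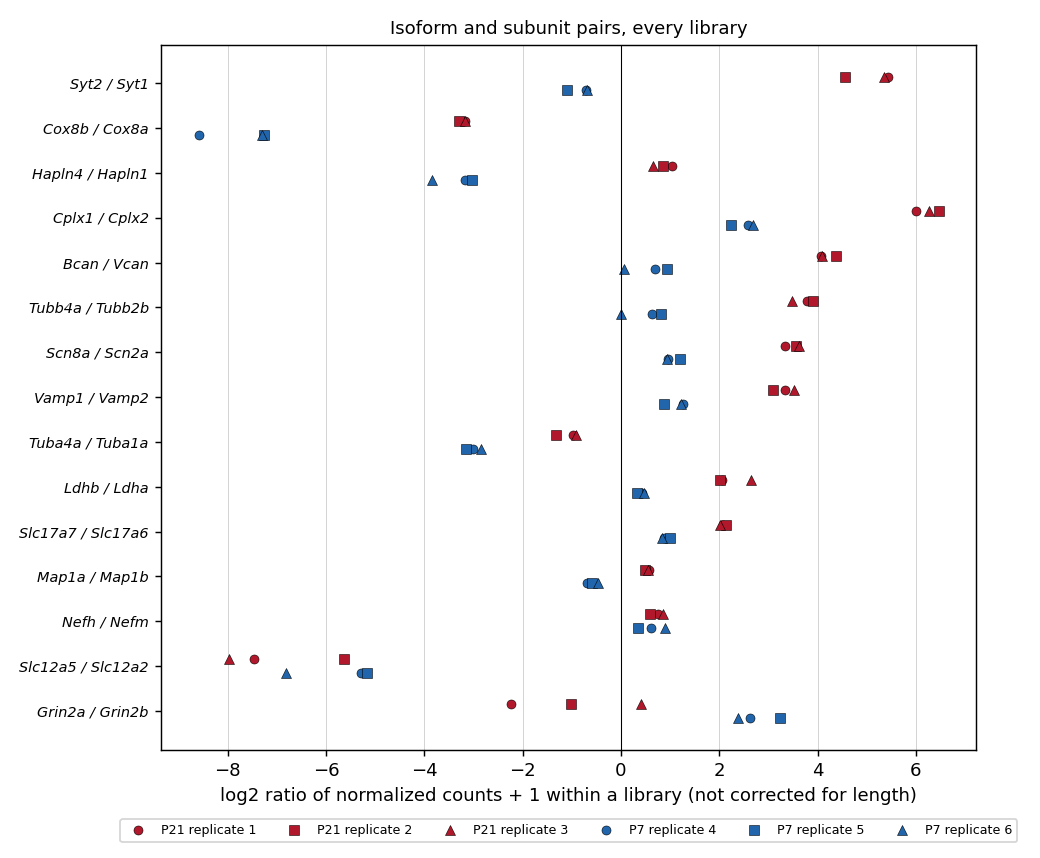
Log2 ratio of the later to the earlier isoform's normalised count for 15 of the 18 gene pairs, 1 point per library, P21 and P7 in separate colours; the values are not corrected for gene length. The ratio of Syt2 to Syt1 averages 5.12 in the P21 libraries and -0.83 in the P7 libraries, and the Nefh to Nefm points of both ages overlap.

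Sodium channels split by subunit. Scn8a (mm10 chromosome 15, 100870645 to 101045938) encodes Nav1.6, the channel of mature nodes of Ranvier, and counted 8176, 5858 and 9134 in the P21 libraries, against 1117, 1220.1 and 1129 in the P7 libraries. It was 6.57-fold higher (log2 fold change 2.72 ± 0.19, adjusted p = 8.06e-08). The auxiliary subunit gene Scn4b, whose product lets channels reopen quickly, was 9.43-fold higher. The early subunits moved the other way, Scn3a by 2.7-fold and Scn3b by 2.99-fold lower. Scn2a was not called (log2 fold change 0.24 ± 0.20), and was called higher without P21 replicate 2 (adjusted p = 0.0487). In all, 5 of 13 sodium channel genes rose and 4 fell (median -0.14), and 2 fell without P21 replicates 1 and 2.

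Scaffold genes of the node and paranode rose in 13 of 20 cases and fell in 2 (median 0.68). Sptbn4, the beta-IV spectrin that anchors channels at nodes, counted 4669, 3036 and 5386 in the P21 libraries, against 563, 533 and 549 in the P7 libraries. It was 7.73-fold higher with no overlap. The paranodal genes Cntnap1 (3.02-fold) and Cntn2 (6.2-fold) and the potassium channel partner Adam23 (5.08-fold) rose. Epb41l2 (2.23-fold) and the adhesion gene Nrcam (1.8-fold) were lower. Nfasc, neurofascin, was not called, with 12348, 8549 and 14001 in the P21 libraries, against 7295, 12514 and 4741 in the P7 libraries, a P7 range that covers most of the P21 values. Nfasc was called higher without P21 replicate 2 (adjusted p = 0.049), without P7 replicate 5 (0.00943) and with low Eif2s3y as a covariate (0.0427). Ank3, the nodal ankyrin G, also was not called (log2 fold change 0.15 ± 0.15), and was called higher without P21 replicate 2 (adjusted p = 0.0145) and without P21 replicates 1 and 2 (0.0202). P21 replicate 2, in which long transcripts ran low, gave the lowest P21 count of Sptbn4, Cntnap1, Nfasc and Ank3. Without that library the list had 17 genes risen, and without P21 replicates 1 and 2 its median was 1.03.

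Genes of the matrix around nodes moved both ways. Of 13 genes 5 rose and 4 fell, with a median of -0.19, and of 0.04 without P21 replicates 1 and 2. Hapln4 (Bral2, mm10 chromosome 8, 70083529 to 70090862) encodes a link protein that binds proteoglycans to hyaluronan in perineuronal nets. Hapln4 counted 6841, 6002 and 6597 in the P21 libraries, against 453, 463 and 308 in the P7 libraries. It was 16.1-fold higher (log2 fold change 4.01 ± 0.22, adjusted p = 1.12e-08). The proteoglycan gene Acan was 3.95-fold higher, and the early matrix genes Vcan (10.5-fold) and Ncan (6.93-fold) were lower. Vcan counted 279.8, 291 and 322 in the P21 libraries, against 3045, 3073 and 3288 in the P7 libraries. The hyaluronan synthase gene Has3 rose 3.12-fold, and Has2 fell to 4.68, 1.03 and 1.96 in the P21 libraries, against 47.9, 43.6 and 43.2 in the P7 libraries.

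Potassium and HCN channel genes rose in 15 of 27 cases and fell in 3 (median 0.87). Kcnc1 (mm10 chromosome 7, 46396468 to 46438704) encodes a channel that repolarises fast-firing neurons, and counted 9991, 6904 and 10142 in the P21 libraries, against 839.6, 741 and 889 in the P7 libraries. It was 10.8-fold higher. The low-threshold Kv1 genes Kcna1 (2.63-fold) and Kcna2 (4.09-fold) and their subunit genes Kcnab2 (8.49-fold) and Kcnab3 (7.5-fold) rose. Hcn2 (7.69-fold), a pacemaker channel that shortens synaptic integration, rose as well. The calcium-activated channel gene Kcnma1 was 2.06-fold lower. Kcnd2 was not called (log2 fold change -0.83 ± 0.55).

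Calcium channel genes showed no such lean, with 6 of 16 risen and 5 fallen (median 0.07), of which 3 fell without P21 replicates 1 and 2. Their median was 0.30 without P21 replicates 1 and 2. Cacna1a, the P/Q-type channel of fast synapses, was 2.8-fold higher, and Cacna1h, a T-type channel, was 3.49-fold lower. Sodium-potassium pump genes rose in 8 of 12 cases with 1 fallen (median 0.97). The regulator gene Fxyd7 was 6.72-fold lower.

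Of 25 neurofilament and axonal cytoskeleton genes, 16 rose and 6 fell (median 0.82). Nefh (mm10 chromosome 11, 4938756 to 4948064), the heavy neurofilament, counted 80404, 64727 and 100658 in the P21 libraries, against 19299.8, 15776 and 21184 in the P7 libraries. It was 4.33-fold higher, Nefm 4.01-fold and the microtubule-associated gene Map1a 5.82-fold. The tubulin genes divided, with Tubb3 2.24-fold and Tuba4a 2.14-fold higher and Tubb2b 8.59-fold, Tubb6 3.66-fold and Tubb5 2.06-fold lower. Tubb2b counted 584, 805 and 713 in the P21 libraries, against 6480.2, 6607 and 4985 in the P7 libraries.

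Axon growth and guidance genes went lower, 19 of 33 against 6 risen (median -0.68, and -0.41 without P21 replicates 1 and 2). Gap43, the growth cone protein, counted 109, 168 and 154 in the P21 libraries, against 1141, 1086 and 763 in the P7 libraries. It was 6.9-fold lower (log2 fold change -2.79 ± 0.41, adjusted p = 6.95e-05). Its relatives in growth cone membranes, Marcks (5.21-fold) and Basp1 (2.76-fold), and the guidance receptor gene Robo2 (5.35-fold) were lower too. The semaphorin genes differed, as Sema3a (1.84-fold) and Sema3d (2.42-fold) fell and Sema3e rose (3.25-fold). L1cam, an adhesion molecule of axons, was 2.52-fold higher.

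Of 19 glutamate receptor genes, 7 rose and 7 fell (median -0.60). The number that fell was 4 without P21 replicate 1 and 3 with low Eif2s3y as a covariate, and the median was -0.12 without P21 replicates 1 and 2. The AMPA receptor genes Gria3 (1.96-fold) and Gria4 (1.62-fold) rose, whereas Gria2 was not called (log2 fold change 0.29 ± 0.19), and was called higher with low Eif2s3y as a covariate (adjusted p = 0.0387). The obligatory NMDA subunit gene Grin1 was 3.74-fold higher. Grin2b was at or near the detection limit in all 6 libraries. For GABA and glycine receptors and chloride transporters 4 of 16 tested genes rose and 4 fell (median -1.0). Gabra3, an early receptor subunit, counted 73.0, 63.7 and 43.0 in the P21 libraries, against 596, 526 and 299.6 in the P7 libraries. The glycine receptor subunit gene Glrb was 2.16-fold higher.

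Neurotrophin genes rose in 5 of 16 cases and fell in 3 (median 0.23), and 3 rose without P21 replicate 1. Ntf3, neurotrophin-3, counted 43.0, 49.3 and 44.0 in the P21 libraries, against 216, 185 and 170.0 in the P7 libraries. It was 4.1-fold lower, while Cntf, a Schwann cell cytokine, was 4-fold higher and the low-affinity receptor gene Ngfr 2.99-fold higher. Among neural splicing regulators 10 of 18 rose and 2 fell (median 0.59). The neuronal regulators Rbfox1 (3.74-fold), Srrm4 (2.68-fold) and Nova2 (2.72-fold) were higher, and Ptbp1, which represses neuronal exons, was 2.01-fold lower.

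Myelin genes did not lean one way. Of 20 genes of peripheral myelin, 7 rose, 5 fell and 8 were not called (median 0.05), and the fallen were 3 without P21 replicate 1. The median of these genes was 0.19 without P21 replicates 1 and 2. Their summed counts were 894924 to 1103492 in the P21 libraries, against 988561 to 1172042 in the P7 libraries. Mbp, whose counts were given above, was not called (log2 fold change -0.22 ± 0.31), and was called lower after quantile normalisation (-0.74, adjusted p = 0.0437). Pmp22, a compact myelin protein, counted 128064, 123740.0 and 159571 in the P21 libraries, against 246381, 248470.0 and 306474 in the P7 libraries. It was 1.95-fold lower with no overlap. Pmp2, the fatty acid binding protein of myelin, counted 132, 184 and 117 in the P21 libraries, against 1887, 1571 and 1884 in the P7 libraries, 12.4-fold lower (adjusted p = 7.74e-06). Drp2, which joins periaxin below the sheath's outer membrane, was 2.49-fold higher, the gap junction gene Gjb1 2-fold, and Ndrg1 2.71-fold.

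Schwann cell regulators rose in 5 of 22 cases and fell in 7 (median -0.15), and 3 rose without P21 replicate 1 or without P7 replicate 5. Their median was -0.002 without P21 replicates 1 and 2. Id2, an inhibitor of differentiation, counted 4535, 5364 and 4749 in the P21 libraries, against 17064, 16658 and 15846 in the P7 libraries, and was 3.39-fold lower. Sox2 (2.15-fold), the repressor Zeb2 (2.44-fold) and Adgrg6, the receptor that starts myelination (2.23-fold), fell. The lineage factor gene Sox10 was not called (log2 fold change -0.08 ± 0.11), nor was Egr2, the driver of myelin genes (0.44 ± 0.21), which was called higher without P7 replicate 6 (adjusted p = 0.00937). The axonal signal gene Nrg1 was 3.91-fold higher. Immature Schwann cell genes rose in 4 and fell in 4 of 15 cases (median -0.10, and -0.02 without P21 replicates 1 and 2). Postn (3.53-fold) and Tgfbi (2.31-fold) were lower, and Ngfr and L1cam higher as given above.

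Of 19 oligodendrocyte genes 1 rose and 3 fell, and 15 were not called (median -0.08, and -0.59 without P21 replicates 1 and 2). Hapln2 was the gene that rose, with a log2 fold change of 3.05 without P7 replicate 6. Olig2, Nkx2-2 and Gjc3 fell. The log2 fold changes of the list ran from -2.44 to 3.88. The fallen numbered 1 without P21 replicate 1 or 3 or P7 replicate 4 or 5, and 5 without P7 replicate 6. Mog, a protein of the outer surface of central myelin, counted 1222, 4026 and 608 in the P21 libraries, against 1785, 2832 and 517 in the P7 libraries, a wide spread within each age. Astrocyte genes rose in 4 and fell in 3 of 15 cases (median -0.13, and -0.26 without P21 replicates 1 and 2). S100b counted 70599, 81413 and 59505 in the P21 libraries, against 15478, 17540.0 and 16402 in the P7 libraries, and was 4.25-fold higher. Fabp7, of immature glia, was 5.05-fold lower. Both lists varied between mice of 1 age, and how much of the central part of the nerve each dissection took is not given in the sources used here.

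Lipid synthesis genes leaned neither way. Cholesterol synthesis genes rose in 4 and fell in 6 of 22 cases (median -0.18), and 2 rose without P21 replicates 1 and 2. Myelin lipid synthesis genes rose in 5 and fell in 4 of 20 cases (median 0.05). The desaturase gene Scd1 was 2.22-fold higher, and Fa2h, which makes the hydroxylated lipids of myelin, 1.95-fold higher.

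Energy metabolism genes were higher. Of 22 glycolysis and lactate genes 17 rose and 3 fell (median 0.89). Aldoa, an aldolase, counted 54035, 61489.7 and 58968 in the P21 libraries, against 21377, 20680.4 and 21787 in the P7 libraries. It was 2.73-fold higher (log2 fold change 1.45 ± 0.07, adjusted p = 4.04e-09). The neuronal glucose transporter gene Slc2a3 was 3.44-fold higher and the phosphofructokinase gene Pfkp 2.46-fold. The lactate dehydrogenase subunit gene Ldhb was 2.17-fold higher and Ldha 1.63-fold lower, and the lactate exporter gene Slc16a3 was 3.26-fold lower. Respiratory chain genes rose in 24 of 31 cases with 0 fallen (median 0.47). P21 replicate 2, in which short transcripts ran high, had the highest summed count of this list, and without it 20 rose (median 0.38). With low Eif2s3y as a covariate 18 rose (median 0.43). Sdha, of complex II, counted 20120.5, 19888 and 20320.1 in the P21 libraries, against 10049, 10359.6 and 10472 in the P7 libraries, and was 1.95-fold higher. Cox5a rose 2.22-fold and Atp5b 1.48-fold.

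Cytosolic ribosomal protein genes moved the other way, 25 of 27 lower and 0 higher (median -0.82). Rplp0, of the ribosomal stalk, counted 3721, 4098 and 3501 in the P21 libraries, against 9287, 8545 and 9773 in the P7 libraries. It was 2.44-fold lower, and Rpl4 was 1.77-fold lower. Many ribosomal protein genes have processed pseudogenes to which reads can be assigned, so single values are uncertain. P21 replicate 2 had the highest P21 count of Rpl4 and Rps3, and the count of fallen genes did not move by more than 1.5 times without it.

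Thyroid hormone genes, relevant to cochlear maturation, fell in 7 and rose in 3 of 15 cases (median -0.26), and 5 rose without P21 replicate 2. The median was 0.04 without P21 replicates 1 and 2. Dio2, which makes active hormone in the cochlea before hearing begins, counted 4158, 1700.4 and 2925 in the P21 libraries, against 24663, 24094 and 23398 in the P7 libraries. It was 8.76-fold lower. The receptor gene Thrb was 2.16-fold lower.

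Proliferation genes were lower. Of 30 cell cycle genes 24 fell, 0 rose and 6 were not called (median -0.97). Cdk4, the G1 kinase, counted 3123, 3369 and 2854 in the P21 libraries, against 8532, 8261 and 8298 in the P7 libraries. It was 2.69-fold lower (log2 fold change -1.43 ± 0.08, adjusted p = 9.11e-09). Its partner Ccnd1, cyclin D1, was 3.82-fold lower. Cdk1, the mitotic kinase (mm10 chromosome 10, 69336635 to 69352912), counted 296, 137 and 93.9 in the P21 libraries, against 777, 743 and 597 in the P7 libraries, and was 4.47-fold lower. P21 replicate 1 was the highest of the P21 libraries for Cdk1, as for Top2a, the topoisomerase of dividing cells (1225, 234 and 231 in the P21 libraries, against 2371, 2222 and 2192 in the P7 libraries). Top2a had a log2 fold change of -2.48 ± 0.63, and -3.27 without P21 replicate 1. Mki67, the proliferation antigen Ki-67, was not called (adjusted p = 0.14), at 2658, 717 and 736 in the P21 libraries, against 1899.8, 2128 and 2409 in the P7 libraries, and was called lower without P21 replicate 1 (adjusted p = 0.011) and without P21 replicates 1 and 2 (0.00713).

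Genes of late cell cycle share a pair of short elements close to their starts. The promoters shown were picked, by adjusted p, among called genes whose promoters hold both. Their matches were thus fixed by that choice. The CCAAT box, and the cell cycle homology region written here as TTTGAA or TTTAAA, were searched on both strands in the 250 bases before each start in RefSeq (GRCm38.p6), and capitals mark the matches. Cdk1 is at chr10:69352913-69353162, Top2a at chr11:99024190-99024439 and Cdc20 at chr4:118437344-118437593, all on the minus strand.
Cdk1: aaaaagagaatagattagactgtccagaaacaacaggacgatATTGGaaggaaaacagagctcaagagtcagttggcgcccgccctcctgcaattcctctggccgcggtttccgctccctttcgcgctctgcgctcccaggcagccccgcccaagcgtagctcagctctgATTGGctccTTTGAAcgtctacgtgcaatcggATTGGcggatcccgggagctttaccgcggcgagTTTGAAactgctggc
Top2a: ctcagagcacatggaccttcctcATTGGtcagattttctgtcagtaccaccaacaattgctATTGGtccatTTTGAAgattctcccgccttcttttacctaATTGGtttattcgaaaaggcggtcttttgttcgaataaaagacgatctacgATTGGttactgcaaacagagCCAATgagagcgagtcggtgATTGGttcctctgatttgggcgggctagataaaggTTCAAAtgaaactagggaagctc
Cdc20: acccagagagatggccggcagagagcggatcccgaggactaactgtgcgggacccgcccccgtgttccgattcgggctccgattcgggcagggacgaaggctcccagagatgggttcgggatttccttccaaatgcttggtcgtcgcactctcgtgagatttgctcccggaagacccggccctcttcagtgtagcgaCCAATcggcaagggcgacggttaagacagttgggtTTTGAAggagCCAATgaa
Of 24 listed cell cycle genes found in RefSeq, 19 held CCAAT in at least 1 of their promoters, 79.2%. The share was 39.5% of 12872 tested genes counted likewise, and 33.8% of 32851 single promoters of the same length. TTTGAA or TTTAAA was in a promoter of 12 of the 24 genes, 50%, against 21.4% of tested genes and 25.2% of single promoters. All 16 cholesterol synthesis genes found held CCAAT in a promoter too. TCACNCCAC (N is any base), also searched for that list on both strands, was in a promoter of 1 of the 16, 6.25%, against 1.25% of tested genes. A match is a description of letters and not of a bound site.

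Fetal growth genes fell in 14 of 18 cases and rose in 3 (median -1.66), of which 1 rose without P7 replicate 5. H19 (mm10 chromosome 7, 142575530 to 142578146), an imprinted noncoding RNA that is high before and soon after birth, counted 2310.2, 1803 and 2014 in the P21 libraries, against 110832, 99439 and 109855 in the P7 libraries. It was 52.4-fold lower (adjusted p = 1.5e-10). Its imprinted neighbour Igf2, the fetal insulin-like growth factor, counted 19125, 21951 and 17389 in the P21 libraries, against 83274, 81193 and 80656 in the P7 libraries, 4.21-fold lower. Grb10 (7.35-fold), Dlk1 (11.5-fold), Cdkn1c (3.9-fold) and Plagl1 (2.45-fold) were lower as well. Lin28b was 1.79-fold higher. DNA methylation genes fell in 4 and rose in 2 of 14 cases (median -0.17). The de novo methyltransferase gene Dnmt3a was 2.23-fold lower and the 3 Tet genes, whose products oxidise methylcytosine, were lower, Tet1 by 1.85-fold. Immediate early genes fell in 6 and rose in 3 of 16 cases (median -0.20), with 3 fallen without P21 replicates 1 and 2. The median of the immediate early list was -0.008 without P21 replicates 1 and 2. Ier2 was 2.74-fold lower and Dusp1 3-fold higher.

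Outside the nerve fibres, fibrocyte markers were higher and matrix genes lower. Of 14 cochlear fibrocyte genes 7 rose and 3 fell (median 0.60). Coch, cochlin, an abundant extracellular protein of the spiral limbus and ligament, counted 699393, 849847 and 567701 in the P21 libraries, against 43226, 47125 and 37891 in the P7 libraries. It was 16.4-fold higher. Otos, otospiralin, was 3.5-fold higher, and Apod, a lipid carrier also made by nerve fibroblasts and glia, 9.69-fold higher. The transcription factor genes Pou3f4 (1.99-fold) and Tbx18 (2.01-fold) were lower. Slc26a4, the anion exchanger pendrin, was the stria and melanocyte list's strongest riser at 9.3-fold, where 2 of 14 rose and 0 fell (median 0.52). In that list the melanocyte enzyme gene Dct counted 2841, 601 and 367 in the P21 libraries, against 94.9, 105 and 3102 in the P7 libraries, high in 1 library of each age.

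Of 14 tectorial membrane and transient cochlear genes 1 rose and 10 fell (median -1.83). Ceacam16 was the gene that rose, while Tectb counted 1649.6, 1580.1 and 1037 in the P21 libraries, against 178796, 207225 and 117858 in the P7 libraries. Both encode proteins of the tectorial membrane, and their opposite change left no overlap. The cartilage list fell in 11 of 20 cases and rose in 5 (median -0.84), of which 3 rose without P21 replicates 1 and 2. Col2a1, the fibrillar collagen of cartilage and of the tectorial membrane, counted 39255, 21639 and 34969 in the P21 libraries, against 230304, 197052 and 241477 in the P7 libraries, 7.17-fold lower. Col9a1 was 16.2-fold lower. Ucma, another cartilage matrix protein, was 5-fold higher.

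Bone genes fell in 11 of 15 cases and rose in 1 (median -2.34). Ibsp (mm10 chromosome 5, 104299287 to 104311472), bone sialoprotein, counted 11036, 3191 and 3951 in the P21 libraries, against 115625, 125222 and 121714 in the P7 libraries. It was 23.3-fold lower, and the osteoblast factor genes Runx2 (6.53-fold) and Sp7 (5.77-fold) were lower. Spp1, osteopontin, which many cells outside bone also make, was 3.91-fold higher. The osteocyte gene Sost was not called (log2 fold change -0.07 ± 0.35). P21 replicate 1 held the highest P21 count of Ibsp, Runx2 and Sp7.

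All 12 osteoclast genes tested fell (median -5.25). Their summed counts were 2325 to 3351 in the P21 libraries, against 37539.7 to 57569 in the P7 libraries. Ctsk, the collagen-cutting protease of osteoclasts, counted 1319, 1552 and 1111 in the P21 libraries, against 16947, 16107 and 22875 in the P7 libraries. It was 14-fold lower (log2 fold change -3.81 ± 0.21, adjusted p = 1.19e-08). Acp5 counted 166, 181 and 63.6 in the P21 libraries, against 12463, 10997 and 16997 in the P7 libraries, 106-fold lower. Siglec15 was listed at 0 in the 3 P21 libraries and averaged 19.2 ± 9.82 in the P7 libraries (SD, n = 3), at least 4.95-fold lower against a limit of 3.08 set by 3 reads in 1 library. The list's median with Siglec15 at that bound was also -5.25.

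Fibroblast and interstitial matrix genes fell in 22 of 25 cases, and 0 rose (median -1.86). Col1a1 and Col1a2 are counted in the bone list too, and Postn in the immature Schwann cell list. Col3a1 counted 14486, 9897 and 14525 in the P21 libraries, against 95931, 81252 and 106579 in the P7 libraries, 7.36-fold lower. Fbn2, the fibrillin of early matrix, was 11.5-fold lower and Mfap4, a microfibril-associated protein, 19-fold. Sparc was not called (log2 fold change -0.23 ± 0.13). Basement membrane genes, some of which Schwann cells make, fell in 16 of 22 cases and rose in 2 (median -1.10). Col4a1 counted 7405, 4483 and 7993 in the P21 libraries, against 15813, 15842 and 20215 in the P7 libraries, 2.67-fold lower. Nid2 was 5.27-fold lower and Lama2, whose product Schwann cells need for myelination, 2.65-fold lower. The list's median was -0.70 without P21 replicate 2 and -0.67 without P21 replicates 1 and 2. Lamb2 was not called (log2 fold change -0.00 ± 0.18).

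**Figure D3:**
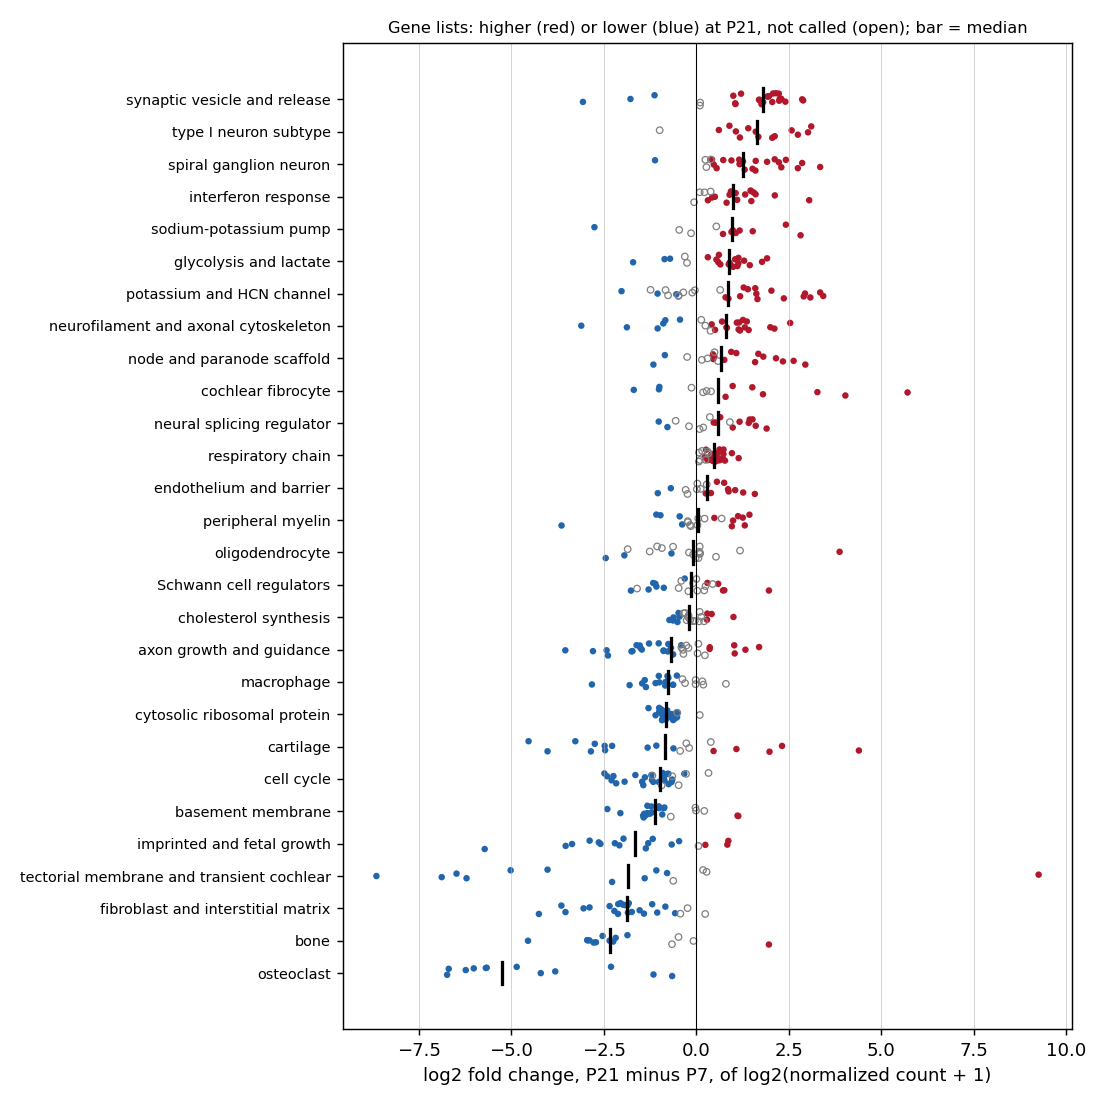
Log2 fold change, P21 over P7, of every tested gene in 28 of the gene lists, 1 point per gene; red points are genes called higher at P21, blue points called lower, open points not called, and a bar marks the median of the list. The medians run from 1.81 for synaptic vesicle genes at the top, over 0.05 for peripheral myelin, to -5.25 for the osteoclast list at the bottom.

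Vessel genes changed in part. Of 17 endothelial and barrier genes 9 rose and 2 fell (median 0.29). The efflux pump gene Abcb1a counted 2552, 1974 and 2442 in the P21 libraries, against 731, 761 and 815 in the P7 libraries, 3-fold higher. Cldn5, the tight junction protein of barrier vessels, was 1.69-fold higher and the glucose transporter gene Slc2a1 2.08-fold. The growth factor receptor gene Kdr was 2.05-fold lower, and Pecam1, a marker of all endothelium, was not called (log2 fold change 0.02 ± 0.16), and was called higher without P21 replicates 1 and 2 (adjusted p = 0.0385). Mural cell genes rose in 3 and fell in 3 of 10 cases (median -0.04, and 0.08 without P21 replicates 1 and 2). The contractile gene Acta2 was 3.13-fold higher and Notch3 2.24-fold lower.

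Macrophage genes were lower in 15 of 22 cases and higher in 0 (median -0.76). Tmem119, a marker of microglia that osteoblasts also express, counted 1229, 978 and 810.1 in the P21 libraries, against 6790.2, 7162 and 7009.5 in the P7 libraries. It was 7.04-fold lower. Csf1r, the receptor that keeps macrophages alive, was 2.56-fold lower and Mrc1 2.75-fold. Csf1r and several others of the list are also expressed by osteoclast precursors, whose own list fell, and the part of those cells was not tested. Complement and engulfment genes rose in 7 and fell in 5 of 20 cases (median -0.04, and 0.03 without P21 replicates 1 and 2). C4b was 8.91-fold higher, with C4a a near-identical copy, and Gas6 2.39-fold higher.

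Interferon response genes rose in 16 of 20 cases and fell in 0 (median 1.0). Their summed counts were 10132 to 12829 in the P21 libraries, against 5929.5 to 6392 in the P7 libraries. Ifit1 (mm10 chromosome 19, 34640889 to 34650009), an antiviral protein that binds foreign RNA, counted 838, 1306 and 1018 in the P21 libraries, against 117, 131 and 125 in the P7 libraries. It was 8.31-fold higher (log2 fold change 3.05 ± 0.29, adjusted p = 1.18e-06). Oasl2, of a family of RNA sensors, averaged 692 ± 171 in the P21 libraries and 155 ± 14.5 in the P7 libraries (SD, n = 3 each), 4.36-fold higher. P21 replicate 3 was the lowest P21 library for Oasl2, Ifit3 and Irf7. The count of risen genes was 12 without P21 replicate 2, and 3 without P21 replicates 1 and 2, which leaves P21 replicate 3 alone. Ifit3 then had an adjusted p of 0.0794 and Irf7 of 0.206. The list's median without both was 0.79. With low Eif2s3y as a covariate, a fit that keeps all libraries, 12 genes rose and the median was 0.93.

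Type I interferon acts through a short element near the start of such genes. The promoters of Ifit1 and Ifit3 were picked among called genes whose promoters hold it, so their matches were fixed by that choice. The core of the interferon-stimulated response element, GAAA followed by any 2 bases and another GAAA, was searched on both strands of the same 250 bases, and capitals mark it. Ifit1 is at chr19:34640639-34640888 and Ifit3 at chr19:34583279-34583528, both on the plus strand.
Ifit1: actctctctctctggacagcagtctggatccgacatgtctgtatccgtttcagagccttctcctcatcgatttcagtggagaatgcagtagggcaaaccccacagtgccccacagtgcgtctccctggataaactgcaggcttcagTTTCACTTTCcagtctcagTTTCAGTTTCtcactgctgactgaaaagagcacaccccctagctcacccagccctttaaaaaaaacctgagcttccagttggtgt
Ifit3: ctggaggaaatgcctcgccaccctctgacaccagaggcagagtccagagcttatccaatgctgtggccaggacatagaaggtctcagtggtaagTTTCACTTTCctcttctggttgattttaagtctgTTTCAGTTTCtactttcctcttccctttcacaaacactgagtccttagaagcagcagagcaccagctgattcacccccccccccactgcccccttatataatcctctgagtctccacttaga
The matches lie 104 to 95 and 85 to 76 bases before the start of Ifit1, and 156 to 147 and 122 to 113 bases before that of Ifit3. The element was in a promoter of 6 of 14 listed interferon genes, 42.9%, against 3.19% of tested genes counted likewise and 2.98% of 32851 single promoters.

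Antigen presentation genes rose in 7 of 18 cases and fell in 0 (median 0.59). The count was 3 without P21 replicate 1, P7 replicate 4 or P7 replicate 5, and 1 without P21 replicates 1 and 2, with a median of 0.31. Tap2, the peptide transporter, was 2.25-fold higher, and B2m, the common light chain, was not called (log2 fold change 0.16 ± 0.23). Several of these genes have near-identical copies.

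Calls of blood cell genes depended on single libraries. Erythroid genes rose in 6 of 9 cases and fell in 0 (median 1.25). The haem enzyme gene Alas2 counted 1743, 1489.7 and 873 in the P21 libraries, against 453, 471 and 782 in the P7 libraries. The count was 1 without P21 replicate 1, P21 replicate 2, P7 replicate 4 or P7 replicate 5, and 0 without P21 replicates 1 and 2, where the median was 0.66. Neutrophil and marrow myeloid genes rose in 7 of 11 cases and fell in 0 (median 2.60). S100a9, a granulocyte calcium binding protein, counted 5533, 1671 and 916 in the P21 libraries, against 193, 209 and 741 in the P7 libraries. P21 replicate 1 was the highest of the P21 libraries and P7 replicate 6 the highest of the P7 libraries. Leaving out P21 replicate 1 left 1 of these calls, and leaving out P7 replicate 4 or 5 left 3 or 2. Without both P21 replicates 1 and 2 the count was 0 and the median 1.49. Of 12 B lymphoid genes 1 rose and 1 fell (median 0.83, and 0.35 without P21 replicates 1 and 2), with Cd79a at 224, 139 and 70.4 in the P21 libraries, against 9.94, 93.9 and 54.5 in the P7 libraries. Counts of marrow and blood genes thus varied from mouse to mouse within each age, and the cell cycle genes, which marrow cells express too, shared the high value in P21 replicate 1. The part of marrow in the cell cycle values was not tested.

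**Figure D4:**
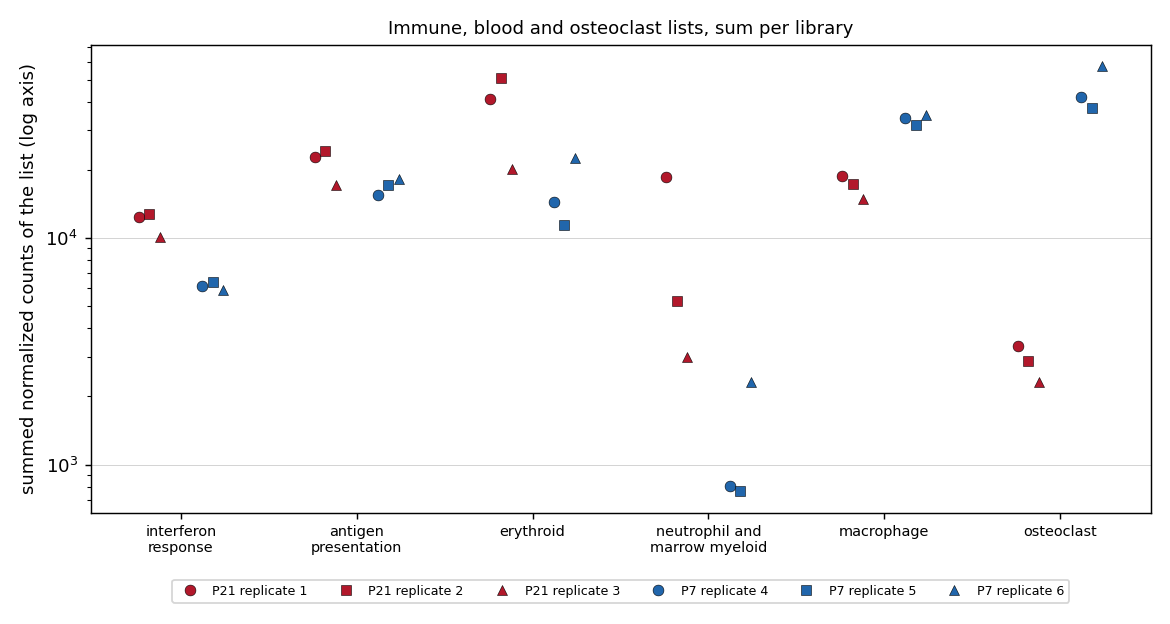
Summed normalised counts (log axis) of 6 blood and immune gene lists in each library, P21 and P7 in separate colours. The interferon sums are 10132 to 12829 in the P21 libraries and 5930 to 6392 in the P7 libraries, without overlap, the osteoclast sums 2325 to 3351 in the P21 libraries and 37540 to 57569 in the P7 libraries, and the neutrophil sums spread over a wide range within each age.

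Markers of other tissues were given the same test. Hair cell genes rose in 5 of 18 cases and fell in 0 (median 0.49), with 3 risen without P21 replicate 1, P7 replicate 4 or P7 replicate 6. The otoferlin gene Otof, of hair cell synapses, was not called, with 3772, 2373 and 3462 in the P21 libraries, against 2328, 2618 and 2059 in the P7 libraries. Skeletal muscle genes rose in 2 and fell in 5 of 13 cases (median -1.12), and the risen genes were Cox8b and Pvalb. With a filter at a normalised count of 50 the fallen were 2. Parvalbumin, the product of Pvalb, is also made by spiral ganglion neurons. Cox8b counted 1414, 2130.2 and 1492 in the P21 libraries, against 28.9, 61.0 and 67.6 in the P7 libraries, while the fast myosin gene Myh2 counted 0.936, 2.06 and 1.96 in the P21 libraries, against 24.4, 28.1 and 24.4 in the P7 libraries, under the limit of detection of a library at P21. Choroid plexus genes rose in 1 and fell in 5 of 9 cases (median -0.87). Ttr, transthyretin, was not called (log2 fold change 0.95 ± 0.39, adjusted p = 0.0552), and was called higher by edgeR (0.049), by DESeq2 (0.0229) and without P21 replicate 1 (0.0437). Kl was 6.96-fold higher.

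The intermediate and later ages place these changes in time, with P14 libraries from about the onset of hearing. These descriptions share the P7 and P21 libraries with the comparison above and are given with no test. P14 replicate 1 and adult replicate 3 had the Eif2s3y and Xist pattern of P21 replicates 1 and 2. The part of that pattern in the means was not tested. Mean counts of Snap25 were 11526 at P7, 66895 at P14, 84070.1 at P21 and 110727 in adults. Those of Scn8a were 1155 at P7, 6108 at P14, 7723 at P21 and 20841 in adults. Sptbn4 averaged 548 at P7, 2937 at P14, 4364 at P21 and 8704 in adults. For these 3 genes the P14 mean was already several times the P7 mean, and the adult mean was above that of P21. By a measure chosen after values had been seen, the P14 mean lay nearer to P21 than to P7 on the log2 scale for 3899 of the 4675 genes that rose, 83.4%, and for 3637 of the 4766 that fell, 76.3%. The lists differed in this. All 22 synaptic genes that rose and all 24 cell cycle genes that fell were nearer to P21 at P14.

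Fallen bone, cartilage and basement membrane genes had lower shares. At P14, 1 of 11 fallen bone genes, 3 of 11 fallen cartilage genes and 3 of 16 fallen basement membrane genes were nearer to P21. Among fallen fibroblast and interstitial matrix genes 12 of 22 were, and among fallen osteoclast genes 11 of 12. Ibsp averaged 120854 at P7, 50092 at P14, 6059 at P21 and 765 in adults. Col4a1 averaged 17289.9 at P7, 15117 at P14, 6627 at P21 and 4436 in adults. Among peripheral myelin genes, all 7 risen genes and 1 of 5 fallen genes were nearer to P21. Pmp22 averaged 267108 at P7, 241594 at P14, 137125 at P21 and 59504 in adults. H19, by contrast, averaged 106709 at P7, 6799.9 at P14, 2043 at P21 and 625 in adults. Igf2 averaged 81708 at P7, 31956 at P14, 19488 at P21 and 18312 in adults. Ceacam16 averaged 87.5 at P7, 53013 at P14, 52349 at P21 and 19807 in adults, and thus was highest at P14 and P21.

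**Figure D5:**
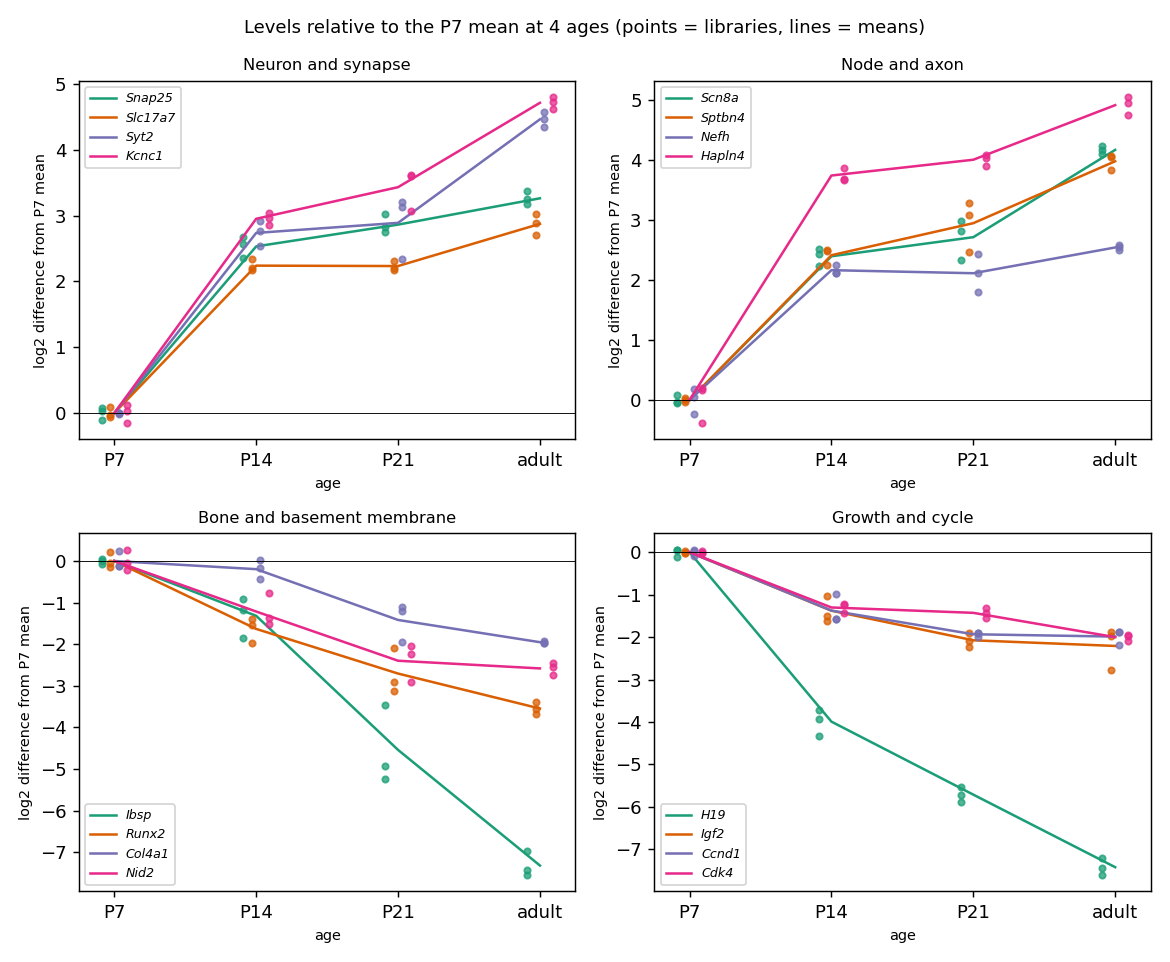
Normalised counts relative to the P7 mean (log2) at P7, P14, P21 and in adults, 1 point per library, in panels of neuronal, axonal, bone and matrix, and growth genes. Snap25 and Sptbn4 are high from P14 on, Ibsp and Col4a1 are lower at P21 than at P14, and H19 is already low at P14.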

How the data were processed

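Per the labels' protocols, total RNA of each nerve was extracted with a miRNeasy kit, checked on a Bioanalyzer and made into TruSeq libraries. Per the submitters' processing notes, Partek, TopHat2, DESeq2 and build mm10 were used; the annotation, strand setting and counting rule are not given in the sources used here, so overlapping and antisense genes and near-identical copies (globin, Bglap, H2, C4 and ribosomal genes) are uncertain. The deposited signal values are the authors' counts divided by a size factor. Whole reads were recovered from them (99.94% of values within 0.1 of a whole number) and used for edgeR and DESeq2. The authors' deposited p-values and signed fold values served only as a check, and the authors' adjusted values were not used here.

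Genes with a normalised count of at least 10 in 3 or more of the 15 libraries were kept, 16723 of 18536. Values were taken as log2(count + 1), which understates changes of low genes, and fitted in 1 limma 3.58.1 model over all 15 libraries and 5 ages with 10 residual degrees of freedom (R 4.3.3), P21 minus P7, with Benjamini-Hochberg adjustment over all tested genes and a threshold of 0.05. Fold changes come from this scale. Alternatives were edgeR 4.0.16, DESeq2 1.42.0, voom, quantile and TMM scaling, other filters and pseudocounts, a fit of P7 and P21 alone, a minimal fold, leaving out each library, leaving out the libraries low in Eif2s3y, and Eif2s3y as a covariate. The procedure was tested on simulated data. Genes to name were the 12 with the greatest rise and the 12 with the greatest fall among called genes without overlap between ages, with a mean of at least 10 CPM in the higher age and no predicted symbol; per list of 50, up to 4 called members in each direction with the smallest adjusted p, up to 2 uncalled members with the highest mean, and members called against the list's direction; and the genes of 18 isoform pairs and a fixed set. Some of these are left out of the text, and some further list members were picked with their values in view. The members and lists were chosen with earlier results of these data known. List members that are absent or under the filter are not counted. Promoter sequences are RefSeq's (GRCm38.p6).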

Additional observations from a re-analysis of the deposited data

How the results depend on the processing

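Counts of genes called stayed within 1.5 times under all alternatives except a test against a minimal log2 fold change of 1, which called 669 genes higher, 534 lower and 1203 with at least a 2-fold change. Leaving out 1 library at a time gave 4142 to 4819 genes higher, 4102 to 4845 lower and 3147 to 3389 of at least 2-fold. Of 590 called genes named or listed, 447 kept their call under every alternative other than that minimal fold. Without the libraries low in Eif2s3y, P21 keeps 1 library, whose spread is assumed to be that of the other ages; 2 genes then changed sign, Kcnh7 at a log2 fold change of 1.47 and Epor at -0.98, neither of them called with all libraries. Of 72 list counts of 3 or more genes, 63 stayed within 1.5 times there, 63 without P21 replicate 1 and 70 without P21 replicate 2. The median log2 fold change in 4 equal classes of transcript length, from short to long, was 0.07, 0.01, -0.03 and -0.10, and without P21 replicate 2 it was -0.02, 0.00, 0.00 and 0.02; this check was chosen after seeing the data. Scaling moved the median of all genes by less than 0.02. No paired analysis was possible because the P7 libraries are numbered 4 to 6 and the P21 libraries 1 to 3. Depth limits genes near 3 reads, such as Siglec15 and Grin2b, and 3 mice a group limit the rest.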

Other observations

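Adjusted here over the whole deposited table of 18536 genes, and not over the tested genes alone, the authors' p-values gave 4989 genes higher and 4855 lower at P21.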
